A study of Taeniopygia guttata with 134 samples.

Results

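The response of the hypothalamus to lipopolysaccharide (LPS) was measured by RNA sequencing in male zebra finches (Taeniopygia guttata) that met an unfamiliar female. The libraries were chosen by their labels: 11 of the 45 hypothalamic libraries, in a series that also holds 43 libraries from nucleus taeniae (TN) and 46 from the bed nucleus of the stria terminalis (coded NST), carry the codes for the hypothalamus (HY) and for an unfamiliar female (NF), 5 of them from LPS-injected males and 6 from males that received the control injection. The LPS males have the numbers 3, 19, 24, 57 and 59, and the control males 4, 20, 28, 37, 39 and 58, with 1 library per male. The rest of the series covers males kept alone (ISO), kept with a known female throughout (KFC) or reunited with a known female (KF), and the other regions come from the same birds. In both NF groups the male was injected first and then placed with the female, per the design text. The labels code the control injection as S and the design text as C, and neither source states what it contained, how much LPS was given, how long before dissection, or the age and strain of the birds.

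LPS is a component of the outer membrane of Gram-negative bacteria. Birds and mammals detect it mainly through Toll-like receptor 4, which activates NF-kappa-B signalling and leads to the release of cytokines such as interleukin-1 and interleukin-6. The hypothalamus receives these signals from the blood and from vagal afferents and controls fever, feeding, stress hormone release and reproduction, and the sickness behaviour that follows LPS is known to depend on social context in the zebra finch. The comparison addresses whether LPS changed hypothalamic gene expression in the presence of a new potential mate, and whether this response differed from that in the other settings.

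The table gives counts for Ensembl gene identifiers without names, so genes are given by identifier and neither the defining markers of the hypothalamus nor those of other cell types could be looked up. Total counts ran from 8369108 to 10682038 in the LPS libraries (median 9057017) and from 7339294 to 9457867 in the control libraries (median 8633302). Every NF library of the hypothalamus was closer to the median library of its own region (r = 0.964 to 0.981 across genes) than to those of NST (0.951 to 0.974) and TN (0.940 to 0.959). These correlations run across genes, which are no replicates of one another. Control male 58 had both the lowest depth and the lowest correlation with the median library among the 11, and it is kept in the results below.

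LPS changed 91 genes (0.631%), raising 83 and lowering 8, in the hypothalamus of NF males among 14420 genes tested (p under 0.05 after Benjamini-Hochberg adjustment in edgeR's quasi-likelihood test). That is 0.576% of the tested genes as rises and 0.0555% as falls. In a fit to the 11 NF libraries alone, which changed the filter, the scaling and the estimate of the spread together and tested 13463 genes, 34 genes rose and 3 fell. Across the 14420 genes the median log2 change was -0.0087. Rises were large: their median was 1.86 on the log2 scale of LPS over control, 72 of them exceeded 2-fold and 37 exceeded 4-fold. The falls were smaller, with a median of -1.13, and 4 of the 8 exceeded 2-fold. In tissue samples such as these, fewer cells of a type and less RNA per cell cannot be told apart. A further 232 of the 14420 genes had a fitted change above 1 and 161 below -1 without passing the test. In both directions these outnumbered the 72 rises and 4 falls of that size that passed.

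**Figure D1:**
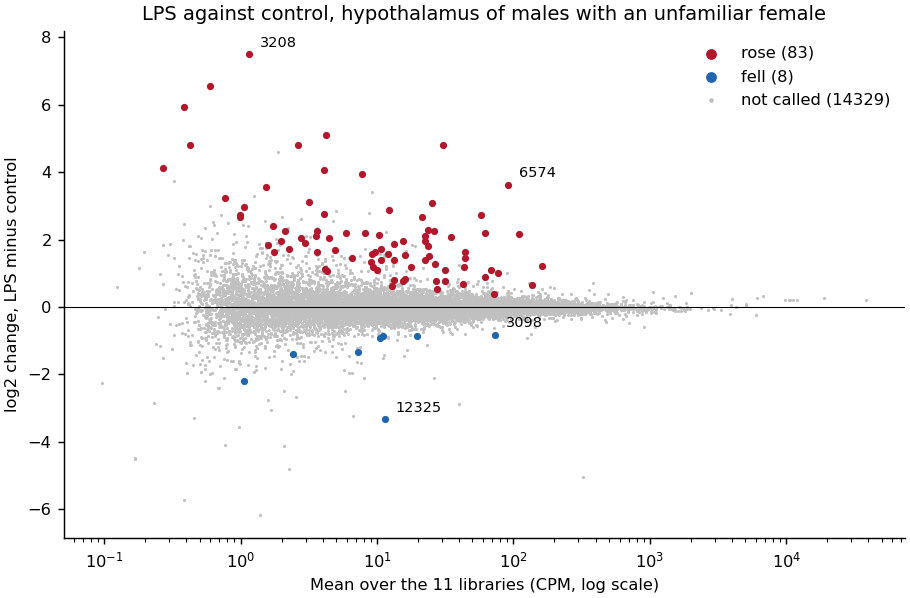
Fitted log2 change (LPS minus control) of each tested gene against its mean level over the 11 libraries in CPM, on a log scale. Red points are the 83 genes that rose, blue points the 8 that fell, grey points genes that did not pass, and the 4 labelled points carry the last digits of the identifiers described in the text.

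The rises were spread over low and middling levels of expression. Levels are given as CPM, the usual scaling of read counts to a common library size (TMM-normalised here). Of the genes with a mean below 1 CPM over the 11 libraries, 7 of 785 rose (0.892%), and of those between 1 and 10 CPM, 32 of 4035 (0.793%). Between 10 and 100 CPM 41 of 7536 rose (0.544%), and above 100 CPM 3 of 2064 (0.145%). LPS libraries entered both the mean level and the filter on read counts. A gene low in control males could be tested because LPS libraries held its reads. The share of rises in the lowest classes is therefore shaped by the filter as well. The median rise was 2.05 on the log2 scale between 1 and 10 CPM, 1.498 between 10 and 100 CPM and 1.22 above 100 CPM. Below 1 CPM it was 4.12, or 3.88 with genes that had no count in any control library set to a lower bound. The 8 falls lay between 1 and 10 CPM (3 genes) and between 10 and 100 CPM (5 genes).

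A part of the rising genes was close to silent without LPS. Among the 83, 19 had a mean below 1 CPM in control males, and 3 had no count in any of the 6 control libraries. Of the 14420 tested genes, 785 had a mean below 1 CPM over all 11 libraries, and the number for control males alone was not counted. Genes this low in control males could pass the filter through LPS libraries, so these counts only describe the list. After LPS, 3 of the 83 still averaged less than 1 CPM. The highest mean among the rising genes was 234 CPM in LPS males and 109 CPM in control males.

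Gene ENSTGUG00000003208 had the largest fitted rise among the called genes with a mean of at least 1 CPM. It stood at 1.45, 2.09, 0.225, 3.22 and 5.64 CPM in LPS males 3, 19, 24, 57 and 59, from 15, 19, 2, 30 and 48 reads, whereas all 6 control libraries held 0 reads. Every LPS male therefore lay above every control male, although male 24 did so with only 2 reads. The gene passed the filter on read counts through LPS libraries and was chosen for its rise, so this separation adds no support. The LPS mean of 2.53 ± 2.05 CPM (SD, n = 5) was at least 44-fold higher than the level that 3 reads over the 6 control libraries together would give, 0.0574 CPM. The fitted log2 change was 7.50 (SE 1.38, edgeR adjusted p = 0.00179), which depends on the prior count and is no bound. The limit of 44-fold allows for counting error in the control libraries only and not for the spread between males. The reads carry no molecular identifiers, so even the counting error may be understated.

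In the other settings of the hypothalamus, to which the same filter applied, ENSTGUG00000003208 passed the test as well. It averaged 1.58 ± 1.12 CPM in LPS males and 0.0561 ± 0.0924 CPM in control males in ISO (SD, n = 6 each), and 2.50 ± 2.32 CPM in LPS males and 0.0925 ± 0.139 CPM in control males in KF (SD, n = 6 each). In KFC it averaged 7.13 ± 12.8 CPM in LPS males, with a highest value of 30.05, and 0.0680 ± 0.0621 CPM in control males (SD, n = 5 each). The mean of the LPS males of NF, 2.53 CPM, stood close to that of KF. It lay below the KFC mean, which was raised by LPS male 67 at 30.05 CPM. The other KFC LPS males lay between 0.872 and 2.50 CPM, below the NF mean. By the median the order was reversed, at 2.09 CPM in LPS males of NF and 1.24 CPM in those of KFC. No size is given for the difference between settings, since the fitted NF change has no bound, and its test did not pass (edgeR adjusted p = 0.99996).

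Gene ENSTGUG00000006574 showed the largest gain in CPM among the called genes. It reached 264, 46.4, 72.9, 234 and 298 CPM in LPS males 3, 19, 24, 57 and 59, against a lowest value of 1.48, a median of 6.39 and a highest of 35.8 CPM in the 6 control males. The groups did not overlap, but both were widely spread: LPS males 19 and 24 stood well below males 3, 57 and 59, and control males 28 (35.8 CPM) and 37 (34.9 CPM) well above the other 4, which lay at 8.49 CPM or less. The means were 183 ± 115 CPM in LPS males (SD, n = 5) and 14.7 ± 16.1 CPM in control males (SD, n = 6), a ratio of 12.4 and which the model fitted as 3.63 on the log2 scale (SE 0.73, edgeR adjusted p = 0.00553). In the fit to the 11 NF libraries alone, with its own filter, scaling and spread, the change was 3.62 and did not pass (edgeR adjusted p = 0.102).

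The level of ENSTGUG00000006574 in single males was followed into the other regions. Control male 37 was high in NST (48.1 CPM) and TN (44.1 CPM) too, and control male 28 in NST (36.8 CPM). The other control males had at most 5.76 CPM in NST and 4.42 CPM in TN. LPS male 19, the lowest of the LPS males in the hypothalamus at 46.4 CPM, was the highest in NST at 580 CPM and the lowest in TN at 17.6 CPM. As described below, the deviations of its NST library correlated only weakly across genes with those of its hypothalamic library (0.0837). The NST value of this male is therefore to be read with care. In KFC of the hypothalamus, LPS male 67 stood at 1087 CPM and the other 4 LPS males between 90.8 and 353 CPM, against 6.63 to 25.5 CPM in the 5 control males. In KF, LPS males ran from 58.2 to 346 CPM and control males from 1.44 to 20.1 CPM. In ISO they ran from 56.1 to 248 CPM and from 1.96 to 26.9 CPM. The log2 change passed in ISO (4.02), KFC (4.85) and KF (4.12), and NF differed from their mean by -0.71 (SE 0.80), which did not pass. In NF males it passed in NST (3.88) but not in TN (2.35, edgeR adjusted p = 0.566).

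Gene ENSTGUG00000012325 had the largest fitted fall among the called genes with a mean of at least 1 CPM. It stood at 1.45, 1.43, 1.91, 1.29 and 3.52 CPM in LPS males 3, 19, 24, 57 and 59, whereas control males ran from 1.11 through a median of 16.9 to 46.6 CPM. The groups overlapped because control male 4, at 1.11 CPM, lay below all LPS males, while the other 5 control males lay between 7.29 and 46.6 CPM. The mean was 1.92 ± 0.926 CPM in LPS males (SD, n = 5) and 19.3 ± 16.1 CPM in control males (SD, n = 6), fitted as -3.33 on the log2 scale (SE 0.84, edgeR adjusted p = 0.0468). This call was close to the threshold: it was lost in 9 of the 11 fits that left out 1 NF library, in which the adjusted p ran from 0.0262 without control male 4 to 0.181 without LPS male 57.

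In the other settings ENSTGUG00000012325 did not pass, with log2 changes of -1.53 (SE 0.74) in ISO, -1.03 (SE 0.80) in KFC and -0.59 (SE 0.70) in KF. Its NF control males had the highest mean of any control group in the hypothalamus, 19.3 CPM, where those of KF averaged 10.7, those of ISO 9.10 and those of KFC 7.85. In NST of NF males it ran from 6.56 to 38.2 CPM after LPS and from 11.2 to 56.3 CPM in 5 controls, with control male 20 at 147 CPM. In TN it ran from 1.15 to 2.44 CPM after LPS and from 1.83 to 3.56 CPM in 4 controls, with control male 39 at 20.2 CPM. The groups overlapped in both regions and the change did not pass (edgeR adjusted p = 0.317 in NST and 0.663 in TN). Set against the average of the other settings, the NF response differed by -2.28 on the log2 scale (SE 0.91), at an unadjusted p of 0.0166 that did not pass adjustment over all genes (edgeR adjusted p = 0.99996). The gene was chosen for its fall in NF, which favours such a difference.

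Gene ENSTGUG00000003098 had the largest loss in CPM among the falls. It also had the smallest SD relative to the mean in LPS males among the 4 genes described. It stood at 41.5, 58.5, 63.2, 51.4 and 45.2 CPM in LPS males 3, 19, 24, 57 and 59, against 73.9 to 102 CPM (median 93.3) in the control males. No LPS male reached the lowest control male. The mean was 51.98 ± 8.998 CPM in LPS males (SD, n = 5) and 92.0 ± 10.5 CPM in control males (SD, n = 6), fitted as -0.82 on the log2 scale (SE 0.13, edgeR adjusted p = 8.43e-05). The change was -0.56 in ISO (SE 0.12), -1.01 in KFC (SE 0.13) and -0.90 in KF (SE 0.12), and passed in each. Compared with their mean, the response in NF differed by -7.00e-05 with an SE of 0.14. In NST of NF males the gene changed by -0.65 (SE 0.12, edgeR adjusted p = 8.14e-04), and in TN by -0.45 (SE 0.12), which did not pass (adjusted p = 0.293).

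**Figure D2:**
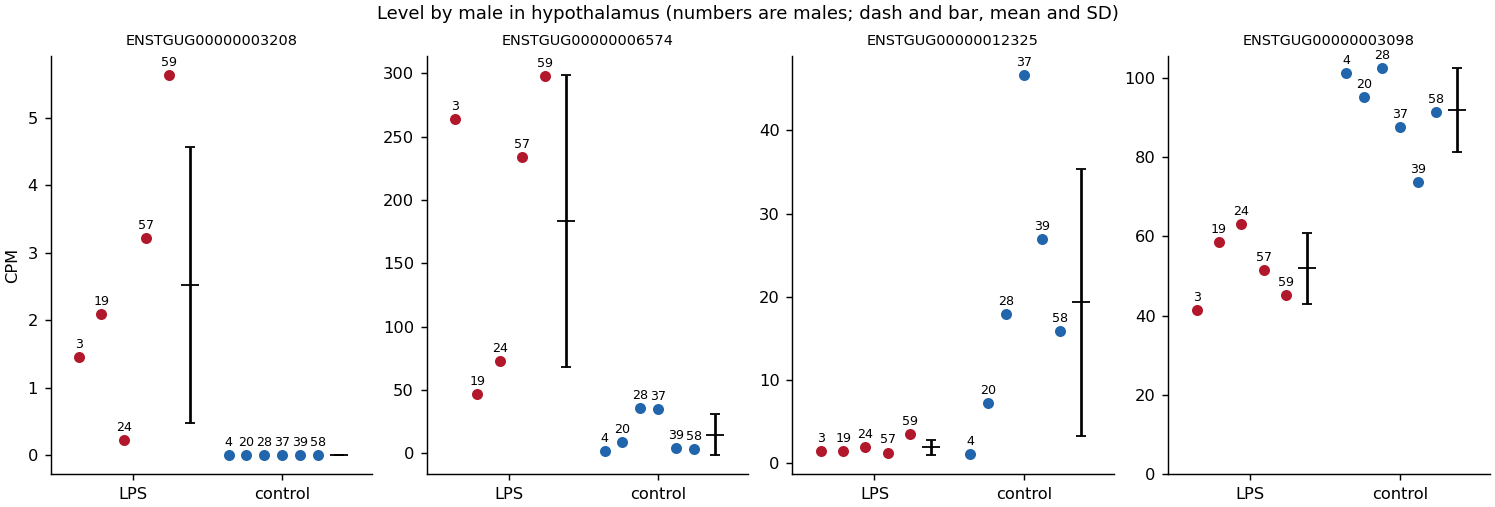
Level in CPM of the 4 described genes in each NF male, with LPS males in red and control males in blue, male numbers beside the points, and the mean and SD as a dash with a bar. ENSTGUG00000003208 is at 0 in all 6 control males, and ENSTGUG00000006574 is split within both groups. ENSTGUG00000012325 overlaps through control male 4, and ENSTGUG00000003098 separates the groups with little spread relative to its mean.

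The groups did not overlap for 51 of the 83 rises and 6 of the 8 falls. Over all 14420 genes every LPS library lay above every control library for 0.832%, and below for 0.18%. The test that called these genes used the same values, so these counts describe the calls and add no support. For the other 32 rises and 2 falls at least 1 LPS male lay within the range of the control males.

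LPS males differed in how far they moved. Over the 83 rises the mean of log2 CPM minus the control mean was 2.25 in male 59, 2.20 in male 57, 1.94 in male 3, 1.43 in male 24 and 1.34 in male 19. Males 59 and 57 were the highest LPS males for 34 and 33 of the 83 genes, and male 19 the lowest for 45. The count of called genes followed these 2 males: it was 48 without male 59 and 49 without male 57, in place of 91, and 103 without male 19. Without any other single NF library it ran from 62 to 79. Of the 83 rises, 38 passed in each of the 11 fits that left out 1 NF library, as did 1 of the 8 falls, and no called gene changed sign in any of them.

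Control males also varied along these genes. Over the 83 rises the deviation from the control mean was 0.39 in male 28 and 0.27 in male 37, and between -0.19 and -0.13 in the other 4. Males 28 and 37 held the highest control value for 28 and 23 of the 83 genes. All 6 stood below the lowest LPS male, at 1.34. The 83 genes were called on these same values, so this separation follows from their choice and adds no support.

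**Figure D3:**
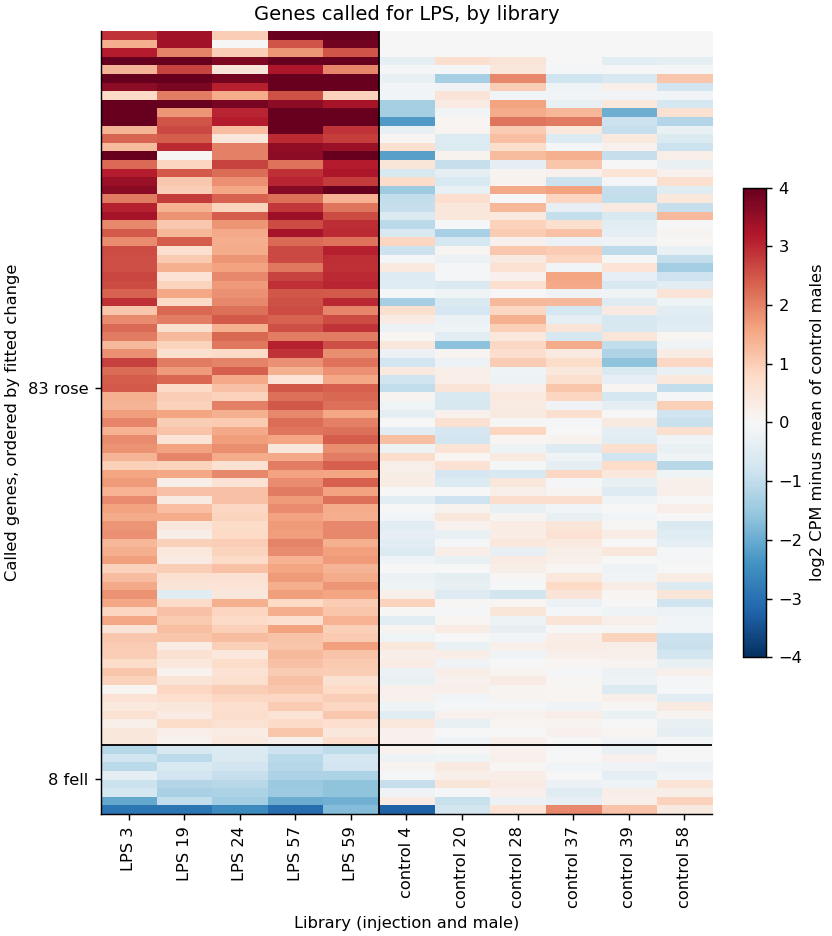
Log2 CPM minus the mean of the control males for each called gene (rows, ordered by fitted change) in each NF library (columns, LPS left of the line and control right of it). The 83 rises lie above the horizontal line and the 8 falls below it, colours run from -4 to 4 and larger values take the end colour, the columns of LPS males 57 and 59 are the darkest, and those of control males 28 and 37 are the reddest among the controls.

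The order of the LPS males was the same over a larger list, chosen by the response in the other settings. In the other 3 settings together, 441 genes rose and 223 fell (3.06% and 1.55% of those tested, edgeR adjusted p under 0.05 for the mean of ISO, KFC and KF). The NF libraries did not enter that contrast but did enter the filter, the scaling and the spread of the model. Of the 441 genes, 80 are among the 83 rises of NF. The order and separation of the males over the 441 are therefore in part those over the 83. The rest of the 441 was not taken alone. Over the 441 genes the mean deviation was 0.98 in LPS male 59, 0.93 in male 57, 0.80 in male 3, 0.65 in male 24 and 0.49 in male 19. Control males lay between -0.09 and 0.18, with male 28 the highest. The LPS mean was 0.77 ± 0.20 above the control mean (SD, n = 5), and no LPS male overlapped with the control males, whose SD was 0.10 (n = 6).

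Over the 223 genes that fell elsewhere, the LPS males averaged -0.23 ± 0.11 (SD, n = 5) relative to the control mean, with control males between -0.14 and 0.17. LPS male 24, at -0.11, lay within that range, and LPS male 57, at -0.39, was lowest. The groups thus overlapped for the lowered genes and did not for the raised ones.

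Most genes that moved elsewhere had the same sign in NF, but few passed there. The lists rest on 34 libraries of 3 settings and the NF test on 11, so the shares called are no measure of the size of the NF response. Taken singly, ISO called 159 genes, KFC 187 and KF 164, against 91 in NF, each among the same 14420 tested. As rises these are 0.985%, 1.03%, 0.832% and 0.576% of tested genes. The NF count ran from 48 to 103 when 1 NF library was left out. With edgeR 0 genes passed for the difference of NF from ISO, KFC or KF, so these counts do not show a weaker response in NF. Of the 441 rises 409 (92.7%) had a positive fitted change in NF, where 47.6% of all tested genes did, and 80 (18.1%) were called as rises in NF, against 0.576% of all tested genes. The median NF change of the 441 was 0.55. Of the 223 falls 183 (82.1%) had a negative change in NF, where 52.4% of all tested genes did, and 6 (2.69%) were called as falls in NF, against 0.0555% of all tested genes. Their median NF change was -0.21. None of the 664 genes was called in NF in the opposite direction. As only 0.0555% of all tested genes were called as falls in NF and 0.576% as rises, few or none would be found in any list of this size. The absence of opposite calls therefore adds no support. These lists were chosen on the other settings, so their own changes there are not set beside the NF values.

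Seen from the NF list, 70 of the 83 rises were also called in ISO, where 0.985% of tested genes rose, 67 in KFC (1.03%) and 66 in KF (0.832%). All 3 other settings called 59 of the 83, where at most 0.832% of tested genes (the share in KF) can have risen in all 3. Another 6 were called in none of them. The 83 rises had a positive fitted change in each of the other 3 settings without exception, a pattern that was not counted over all tested genes. Their median change there was 1.73 in ISO, 2.02 in KFC and 1.85 in KF, beside 1.86 in NF, where they were chosen. Of the 8 falls, 3 were also called in ISO (0.118% of tested genes), 5 in KFC (0.27%) and 5 in KF (0.305%), and the 8 had a negative fitted change in each setting.

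The 6 rises called in NF and in no other single setting had changes of 0.65 to 2.72 in NF and of 0.28 to 1.82 in the mean of the other settings. The 3 falls called in NF and in no other single setting, ENSTGUG00000012325 among them, had changes of -3.33 to -1.39 in NF and of -1.25 to -0.29 elsewhere. The mean of the other settings called 3 of these 6 rises and 1 of these 3 falls. Of the 9 genes, 2 rises and 2 falls had an unadjusted p under 0.05 for the difference between NF and the other settings, the lowest being 0.00543, and none passed adjustment (smallest edgeR adjusted p = 0.99996). Over all tested genes 3.49% had such an unadjusted p. The 9 were chosen for a call in NF and none elsewhere, which itself favours a low p for this difference. With edgeR, a difference between NF and the other settings was not shown for any of them. DESeq2 called 2 genes for this difference among all tested, and whether they are among the 9 was not looked up.

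Lists chosen in 1 of the other settings allowed NF to be set beside the 2 settings that had no part in the choice. For the 142 rises called in ISO the median change was 1.33 in NF, 1.53 in KFC and 1.27 in KF. For the 148 rises of KFC it was 1.21 in NF, 1.22 in ISO and 1.29 in KF, and for the 120 rises of KF it was 1.54 in NF, 1.48 in ISO and 1.88 in KFC. The NF median thus lay between or close to those of the other settings for the raised genes. For the 39 falls called in KFC the median was -0.36 in NF, -0.32 in ISO and -0.37 in KF, and for the 44 falls of KF it was -0.33 in NF, -0.25 in ISO and -0.46 in KFC. For the 17 falls of ISO it was -0.23 in NF, -0.50 in KFC and -0.41 in KF. None of these medians moved when genes with a group at 0 were set to their bound. The settings share no libraries, though they share 1 estimate of the spread.

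The difference between the responses was then tested gene by gene. Set against the average of the other 3 settings, the NF response to LPS passed for 0 of 14420 genes with edgeR, with 503 genes (3.49%) at an unadjusted p under 0.05, and for 2 genes with DESeq2. Against ISO, KFC and KF separately edgeR called 0 genes each, where an unadjusted p under 0.05 was reached by 614, 448 and 781 genes, and DESeq2 called 3, 1 and 2. Among the 83 rises, 2 had an unadjusted p under 0.05 for the difference from the other settings (2.41%), and the change was smaller in NF for 41. A p that misses the threshold does not show that the responses were alike.

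**Figure D4:**
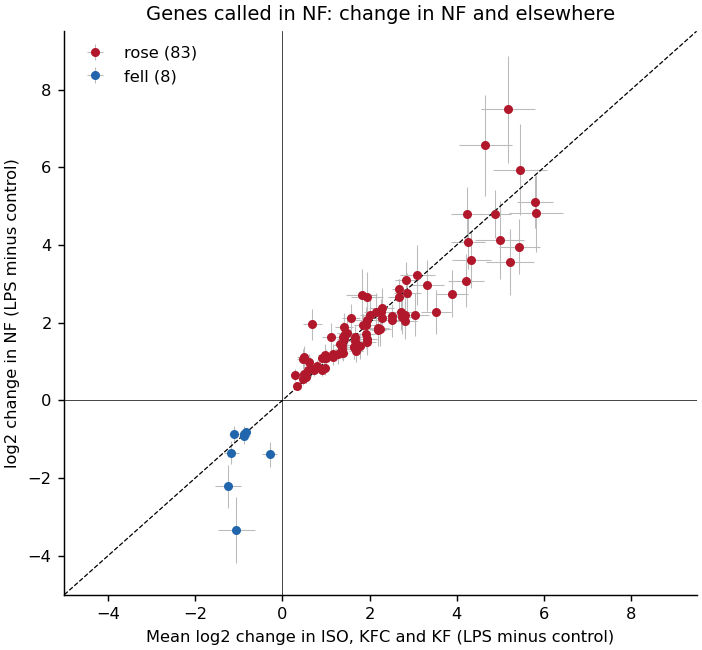
Fitted log2 change (LPS minus control) in NF against the mean change in ISO, KFC and KF for the 83 genes that rose (red) and the 8 that fell (blue) in NF, with SE bars and a dashed line of equal change. All 91 points have the same sign on both axes, and the 83 rises scatter around the line, 41 of them below it.

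The same males gave NST and TN, except that male 27 has no hypothalamic library, LPS males 3 and 57 and control male 28 have none from TN, and NST has libraries of all 12 males. Of the 83 rises in the hypothalamus, 57 were also called in NST of NF males, which has 83 rises of its own (0.577% of 14386 genes), and 11 in TN, which has 13 (0.0891% of 14598 genes). That is 68.7% of either list for NST, 13.3% of the hypothalamic list and 84.6% of the TN list. TN has 4 LPS and 5 control libraries. Of the 8 falls 7 were tested in NST and TN, and 3 and 2 of them were called there, where 0.0765% and 0.0137% of tested genes fell. The median change of the 83 rises was 1.80 in NST and 1.26 in TN, beside 1.86 in the hypothalamus, where they were chosen. The regions share males of both injections, so these values are not independent.

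The responses of the regions were compared within males. The LPS response of NF males in the hypothalamus minus that in NST passed for 0 of 15097 genes (edgeR with the male as a block), with 395 genes at an unadjusted p under 0.05, and for 1 gene with DESeq2. Against TN it passed for 0 genes with either tool, with 432 genes at an unadjusted p under 0.05 with edgeR. Among the 83 rises an unadjusted p under 0.05 was found for 16 against NST (19.3%, where 2.62% of all tested genes had one) and 22 against TN (26.5%, where 2.86% had one). The change was larger in the hypothalamus for 48 of the 83 against NST and for 69 against TN. The 83 were called on hypothalamic values that enter this difference, which itself favours a low p and a larger change there. These shares therefore add no support for a difference between regions.

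The standing of single males over the 83 genes differed in part between regions. LPS male 19 was the lowest LPS male in the hypothalamus (1.34) and in TN (0.82) but the second highest in NST (1.94). Its hypothalamic deviations correlated across genes with those of its TN library at 0.577 but with those of its NST library at only 0.0837, where the other 10 males ran from 0.417 to 0.615. LPS male 59 was highest in the hypothalamus (2.25) and in TN (1.80), and stood at 1.62 in NST, where male 57 was highest at 2.14. Control male 37 lay above the control mean in every region (0.27, 0.24 and 0.35 in the hypothalamus, NST and TN), as did control male 28 in the hypothalamus and NST (0.39 and 0.30). Without male 19 the comparison of the hypothalamus with NST again gave 0 genes, with 377 at an unadjusted p under 0.05.

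**Figure D5:**
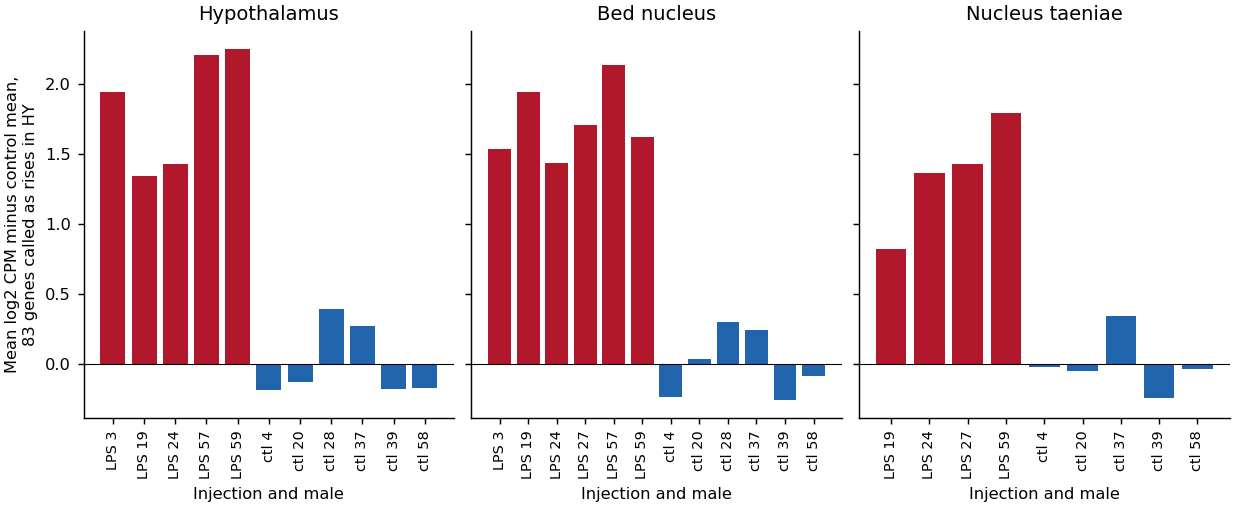
Mean log2 CPM minus the control mean of the region over the 83 genes that rose in the hypothalamus, for each NF male in the 3 regions (red bars, LPS; blue bars, control, written ctl). LPS males lie between 1.34 and 2.25 in the hypothalamus, 1.44 and 2.14 in NST, and 0.82 and 1.80 in TN, and every control male lies below every LPS male of its region. The genes were called on the hypothalamic values, so the separation in that region follows from their choice. The NST and TN libraries come largely from the same males, so the separation there is not independent of that choice.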

How the data were processed

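RNA was selected for polyadenylated transcripts and libraries were made using NEBNext Ultra chemistry, according to the labels' protocols (per the labels). HISAT2 and HTSeq 0.6.1 are named in the submitters' processing notes. Genome build, annotation and strand setting: not given in the sources used here, so how reads of overlapping or near-identical genes were counted is not known. The values the authors deposited are whole-number read counts per gene for 18618 identifiers, not normalized. None of the identifiers (0 of 18618) matched the table of zebra finch genes of assembly bTaeGut7.mat, so the gene lists and markers set out by symbol could not be used.

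Groups came from the titles. Replicates of a group are separate males by number, and p-values rest on the spread between them. The 25 within-group pairs of NF hypothalamic libraries differed by a chi-square per gene of 11.8 to 59.8, so no libraries were merged. Control male 58 was the furthest from the other control males, at 52.2 to 59.8, where no other pair exceeded 32.2. The test was that of edgeR 4.0.16 (R 4.3.3): filterByExpr (minimum count 10, minimum total 15), TMM scaling, and a robust quasi-likelihood model of the 8 hypothalamic groups (common biological coefficient of variation 0.277). Tests were 2-sided, and calls needed a Benjamini-Hochberg adjusted p under 0.05. The SE is the size of the fitted change over the square root of F. Log2 CPM used a prior count of 2. Regions were compared in all libraries of the series with the male as a block, since the design text says that regions came from the same birds. Deviations of same-numbered NF libraries correlated at a median of 0.529 between the hypothalamus and NST (10 of 11 males over 0.1) and 0.465 between the hypothalamus and TN (8 of 8). The models were checked on simulated counts.

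With no names available, the genes described are the called rise and the called fall with the largest fitted change and those with the largest difference in mean CPM, among genes with a mean of at least 1 CPM. The comparison, the rule and the alternatives were chosen with earlier results of these data known. Alternatives were RLE scaling, library totals, no filter, DESeq2 1.42.0, 2 surrogate variables (sva 3.50.0), the NF libraries alone, no block, and leaving out libraries. The comparisons of NF with each single setting had their alternatives added after the data were seen. Figures used matplotlib 3.10.9.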

Additional observations from a re-analysis of the deposited data

How the results depend on the processing

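The count of 91 genes for LPS in NF males was 90 with RLE scaling, 90 with library totals, 86 without the filter, 116 with DESeq2, 112 with 2 surrogate variables and 76 when a change above 2-fold was also required. It was 37 (34 rises and 3 falls) when only the 11 NF libraries entered the fit, of which 34 were shared with the 91, and ENSTGUG00000003208 was removed there by the filter. Leaving out libraries in turn gave 48 to 103, with 99 without control male 44 of KF, whose correlation with the median hypothalamic library (0.916) was the lowest. ENSTGUG00000012325 lost its call in 11 of 18 alternatives (largest adjusted p 0.181), ENSTGUG00000006574 in 1 of 18, and the other 2 described genes in none that could be fitted; no sign changed. With DESeq2 the difference of NF from the other settings passed for 2 genes, from ISO for 3, from KFC for 1 and from KF for 2. Leaving out libraries gave 0 to 1 genes for the difference from the other settings and from ISO, with 1 gene in each without control male 37, and 0 from KFC and KF. The cause of these shifts was not tested. For the hypothalamus against NST, DESeq2 called 1 gene. Without the replicate block both region comparisons gave 0 genes (160 and 238 at an unadjusted p under 0.05, against 395 and 432 with it), as they did in the NF libraries alone (260 and 338) and without any single male; the block changed no call. Within the hypothalamus no number recurs between groups, so no pairing was possible there. Depth limits the low counts, such as the 2 reads of ENSTGUG00000003208 in LPS male 24, and with 5 and 6 males large fitted changes often did not pass.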

Other observations

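Among genes with a mean above 100 CPM over the 11 NF libraries, ENSTGUG00000010708 had the largest fitted change, -5.06 on the log2 scale (SE 2.06), and did not pass the test (edgeR adjusted p = 0.642). It was singled out after its values were seen. It stood between 6.72 and 49.7 CPM in the 5 LPS males, and at 3.001, 3.35, 3.70, 32.2, 877 and 2561 CPM in the 6 control males, the last 2 being males 20 and 28. In the other settings it was also very high in a few males of either injection, with 3682 CPM in LPS male 41 of KF, 409 CPM in LPS male 64 and 421 CPM in control male 70 of KFC, and 479 CPM in control male 31 of KF. In NF the other 4 control males lay at 32.2 CPM or less, 3 of them below the lowest LPS male. What moved with the high values was not tested.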
